A study of Mus musculus with 31 samples.

Results

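Cardiac fibroblasts of the mouse were grown as a flat layer on substrates of 0.5, 8 and 64 kPa, and their RNA was sequenced. These 9 libraries, 3 at each stiffness (labelled 2D-0.5kPa, 2D-8kPa or 2D-64kPa), were chosen by their labels from the 31 samples of the study, of which 29 are RNA libraries. All held fibroblasts taken fresh from hearts of C57Bl/6 mice aged 8 to 12 weeks, and the labels name no transgene, mutation or drug in any of them. A further 6 libraries of the same kind of cell, 3 labelled 2D and 3 labelled 3D, served as a second contrast of the cells' surroundings. The material and coating of the substrates, the time in culture, the number of mice behind a library and the surface under the cells labelled 2D are not stated by any source used here. Nothing in the labels ties the libraries of a group to separate cultures or animals, and the p-values therefore weigh differences against a spread among libraries that may be technical in origin. Every group carries the replicate numbers 1, 2 and 3, whose meaning no label states.

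Fibroblasts pull on what they are attached to and read its resistance through integrins, focal adhesions and actin stress fibres. Tension in that system is known to bring the coactivators MRTF and YAP/TAZ into the nucleus, where they act with the transcription factors SRF and TEAD on genes such as Acta2, Tagln, Ctgf, Cyr61 and Ankrd1. In the heart this route is known for its part in the change of resting fibroblasts into contractile, matrix-making myofibroblasts, and a healthy heart is far softer than a scar or a culture dish.

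The promoters of 4 genes that recur below are shown because the genes stand for the 2 lists on which the description turns, the YAP/TAZ-TEAD genes and the antioxidant genes of the factor NRF2. Each is a window of 300 bases that runs across the start of the gene, 5′ to 3′ in the gene's own direction, from RefSeq on GRCm38.p6. In Ankrd1 (chr19:36119795-36120094, minus strand), a nuclear and sarcomeric ankyrin-repeat protein, and Cyr61 (chr3:145649936-145650235, minus strand), a secreted matricellular protein now named Ccn1, capitals mark the TEAD motif GGAATG on either strand.
Ankrd1: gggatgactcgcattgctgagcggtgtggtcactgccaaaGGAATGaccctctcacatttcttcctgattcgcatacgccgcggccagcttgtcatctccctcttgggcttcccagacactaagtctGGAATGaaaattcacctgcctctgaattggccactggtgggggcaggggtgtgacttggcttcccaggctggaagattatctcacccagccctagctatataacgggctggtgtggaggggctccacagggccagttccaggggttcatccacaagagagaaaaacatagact
Cyr61: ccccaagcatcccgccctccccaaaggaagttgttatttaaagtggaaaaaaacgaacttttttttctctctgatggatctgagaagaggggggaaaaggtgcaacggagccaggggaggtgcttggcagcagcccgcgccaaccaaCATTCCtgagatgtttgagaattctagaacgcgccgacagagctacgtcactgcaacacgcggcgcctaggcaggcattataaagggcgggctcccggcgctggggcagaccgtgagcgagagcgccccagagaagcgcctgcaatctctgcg
In Srxn1 (chr2:152105274-152105573, plus strand), which encodes sulfiredoxin, and Gclm (chr3:122245307-122245606, plus strand), the modifier subunit of the enzyme that starts glutathione synthesis, capitals mark the core of the antioxidant response element, TGACNNNGC or TGAGNNNGC on either strand.
Srxn1: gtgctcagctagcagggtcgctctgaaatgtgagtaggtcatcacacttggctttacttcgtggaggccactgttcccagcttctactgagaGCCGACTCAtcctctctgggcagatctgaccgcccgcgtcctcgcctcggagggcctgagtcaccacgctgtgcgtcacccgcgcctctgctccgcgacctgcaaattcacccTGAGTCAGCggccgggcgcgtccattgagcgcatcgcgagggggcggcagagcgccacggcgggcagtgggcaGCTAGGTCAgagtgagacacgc
Gclm: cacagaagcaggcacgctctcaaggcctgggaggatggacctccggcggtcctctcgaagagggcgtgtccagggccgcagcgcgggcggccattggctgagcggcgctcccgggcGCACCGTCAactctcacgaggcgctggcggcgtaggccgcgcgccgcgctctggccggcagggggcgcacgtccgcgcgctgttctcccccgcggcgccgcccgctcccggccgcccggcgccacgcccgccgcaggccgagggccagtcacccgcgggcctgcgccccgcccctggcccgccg
The TEAD motif occurred in 4817 of all 32851 promoters of this length (14.7%) and in 11 of the 23 YAP/TAZ-TEAD genes that had an entry, out of 30 listed. The antioxidant core occurred in 9128 promoters (27.8%) and in 8 of the 15 NRF2 genes with an entry, out of 20. These are matches of letters and not sites known to be bound.

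The 9 libraries held 9053061 to 16227198 counts in genes, and 12849 of the 24421 genes in the table passed the filter on low counts. Levels are in CPM, the counts of a gene scaled to a common library total. Summed CPM of 13 general fibroblast markers lay between 20095 and 34419. Lymphocyte markers summed to at most 1.12 CPM, erythroid markers to at most 0.648 CPM, Schwann cell markers to at most 13.5 CPM and cardiomyocyte markers to at most 18 CPM. Macrophage markers summed to 534 to 3529 CPM and endothelial markers to 472 to 523 CPM. Smooth muscle and pericyte markers summed to 617 to 777 CPM, and epicardial and mesothelial markers to 234 to 363 CPM. Replicate 3 stood apart from replicates 1 and 2 at every stiffness. The distance between 2 libraries, as the SD across genes of their difference in log2 CPM, was 0.583 to 0.676 between a replicate 3 and any library of replicates 1 and 2, 0.298 to 0.328 among the 3 libraries numbered 3, and 0.255 to 0.444 among the other 6. Within replicates 1 and 2, a library differed from one of another stiffness by a median of 0.316 (0.267 to 0.444). Replicates 1 and 2 of the same stiffness differed by a median of 0.257 (0.255 to 0.336), so the ranges overlapped. The 0.5 kPa replicate 2 lay 0.429 and 0.444 from replicates 1 and 2 of 64 kPa. Replicate number took up 69.1% of the sum of squares over all tested genes and stiffness 12.3%. The libraries numbered 3 also had 8.23% to 9.72% of reads outside genes, against 4.84% to 5.52% in the other 6 libraries. Each comparison below was therefore made without and with the replicate number as a block, which compares stiffnesses within a number. Reads that were not uniquely aligned made up 27.8%, 28.4% and 17.8% at 0.5 kPa in replicates 1, 2 and 3. The shares were 27.1%, 27.4% and 20.8% at 8 kPa and 23.6%, 21.3% and 17.9% at 64 kPa. Their part in the differences below was not tested.

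**Figure D1:**
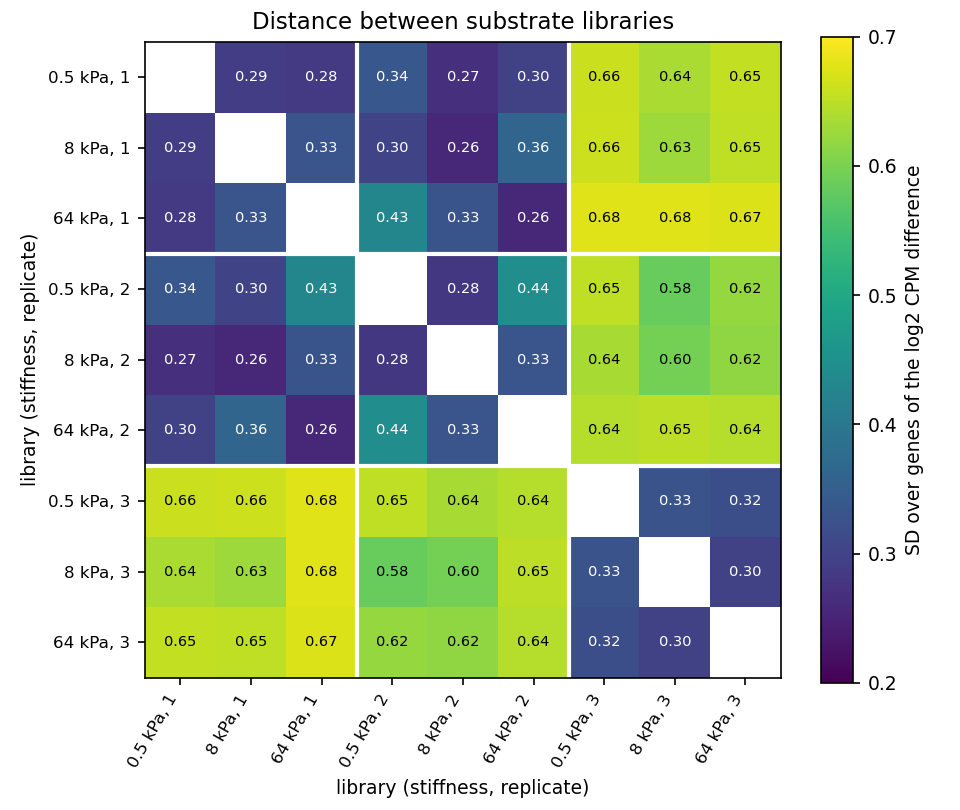
Distance, as the SD across 12849 tested genes of the difference in log2 CPM, for every pair of the 9 libraries, as numbers and colours, with libraries ordered by replicate number and then by stiffness in kPa and white lines between replicate numbers. The 3 libraries numbered 3 form a square of their own at 0.298 to 0.328, and their distances to the other 6 libraries are 0.583 to 0.676 at the same and at other stiffnesses.

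Genes well known for responding to stiffness differed little between 64 and 0.5 kPa within replicate numbers. Acta2, the smooth muscle actin of myofibroblast stress fibres, had 460.2, 461 and 1130.5 CPM at 0.5 kPa, 428, 439.7 and 1021 CPM at 8 kPa and 463, 380.3 and 1094 CPM at 64 kPa. The 3 libraries numbered 3 were the high ones at each stiffness, and the groups overlapped throughout. Acta2 averaged 646 ± 390.4 CPM at 64 kPa and 684 ± 387 CPM at 0.5 kPa (SD, n = 3 each), and the log2 difference was -0.08 ± 0.55 (SE) without the block and -0.10 ± 0.06 with it. The 95% interval ran from -1.34 to 1.17 without the block, which holds a 2-fold change in either direction, and from -0.24 to 0.03 with it. Tagln, an actin cross-linker of contractile cells, had 226, 244 and 453 CPM at 0.5 kPa, 229, 225 and 428 CPM at 8 kPa and 205, 176 and 471 CPM at 64 kPa. Its log2 difference between 64 and 0.5 kPa was -0.18 ± 0.10 within replicate numbers. The YAP/TAZ-TEAD genes behaved alike. Ankrd1 had 273, 376 and 879 CPM at 0.5 kPa, 373, 343 and 845 CPM at 8 kPa and 285, 268 and 888 CPM at 64 kPa. Ctgf, a secreted matricellular protein, had 838, 1054 and 1470.3 CPM at 0.5 kPa, 998, 882 and 1387 CPM at 8 kPa and 900.0, 755 and 1736 CPM at 64 kPa. Cyr61 had 659, 693 and 994 CPM at 0.5 kPa, 715, 674 and 930.4 CPM at 8 kPa and 694, 665 and 1025 CPM at 64 kPa. None of the 3 separated any 2 stiffnesses, and their log2 differences between 64 and 0.5 kPa with the block were -0.14 ± 0.15, -0.04 ± 0.17 and 0.02 ± 0.05 for Ankrd1, Ctgf and Cyr61 in that order. Piezo1, a mechanically gated cation channel, had 504, 456 and 728 CPM at 0.5 kPa, 472, 483 and 692 CPM at 8 kPa and 488, 516 and 692 CPM at 64 kPa. Again the libraries numbered 3 were the highest at every stiffness.

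In none of 6 tests did a gene pass an adjusted p of 0.05 without the block. edgeR's quasi-likelihood test with Benjamini-Hochberg adjustment called 0 of 12849 genes (0%) for 64 with 0.5 kPa, 8 with 0.5 kPa and 64 with 8 kPa, and 0 for the slope over log2 stiffness, for the departure of 8 kPa from the straight line through the other stiffnesses, and for any difference among the 3. The unadjusted p was under 0.05 for 226 genes (1.76%) for 64 with 0.5 kPa, 65 (0.506%) for 8 with 0.5 kPa, 333 (2.59%) for 64 with 8 kPa, 197 (1.53%) for the slope, 173 (1.35%) for the departure and 172 (1.34%) for any difference. Within replicate numbers the same test called 0 genes for 64 with 0.5 kPa, 0 for 8 with 0.5 kPa, 0 for the slope and 1 gene (0.00778%) for 64 with 8 kPa, the enzyme gene Arg1. Unadjusted p was then under 0.05 for 1150 genes (8.95%), 392 genes (3.05%), 1033 genes (8.04%) and 1604 genes (12.5%) in the same order, for 1026 genes (7.99%) for the departure and for 1130 genes (8.79%) for any difference. DESeq2 called 1, 0 and 1 genes for 64 with 0.5 kPa, 8 with 0.5 kPa and 64 with 8 kPa, and with the block 23 of 16145 (0.142%), 1 of 18271 (0.00547%) and 40 of 11895 (0.336%). Single libraries moved these counts. With the block and without the 0.5 kPa replicate 2, edgeR called 405 genes (3.13%) for 64 with 8 kPa, 256 higher and 149 lower, and 30 genes for 8 with 0.5 kPa. Without the 64 kPa replicate 3 it called 80 for 64 with 8 kPa and 46 for 64 with 0.5 kPa, and without the 0.5 kPa replicate 3 it called 12 and 21. Without replicate 3 of every stiffness, and with no block, edgeR called 35 genes for 64 with 0.5 kPa and 29 for 64 with 8 kPa, and 0 for 8 with 0.5 kPa. Genes named below that belong neither to a panel of 20 fibroblast genes nor to the 2 most abundant members of a list were chosen after their values were seen.

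**Figure D2:**
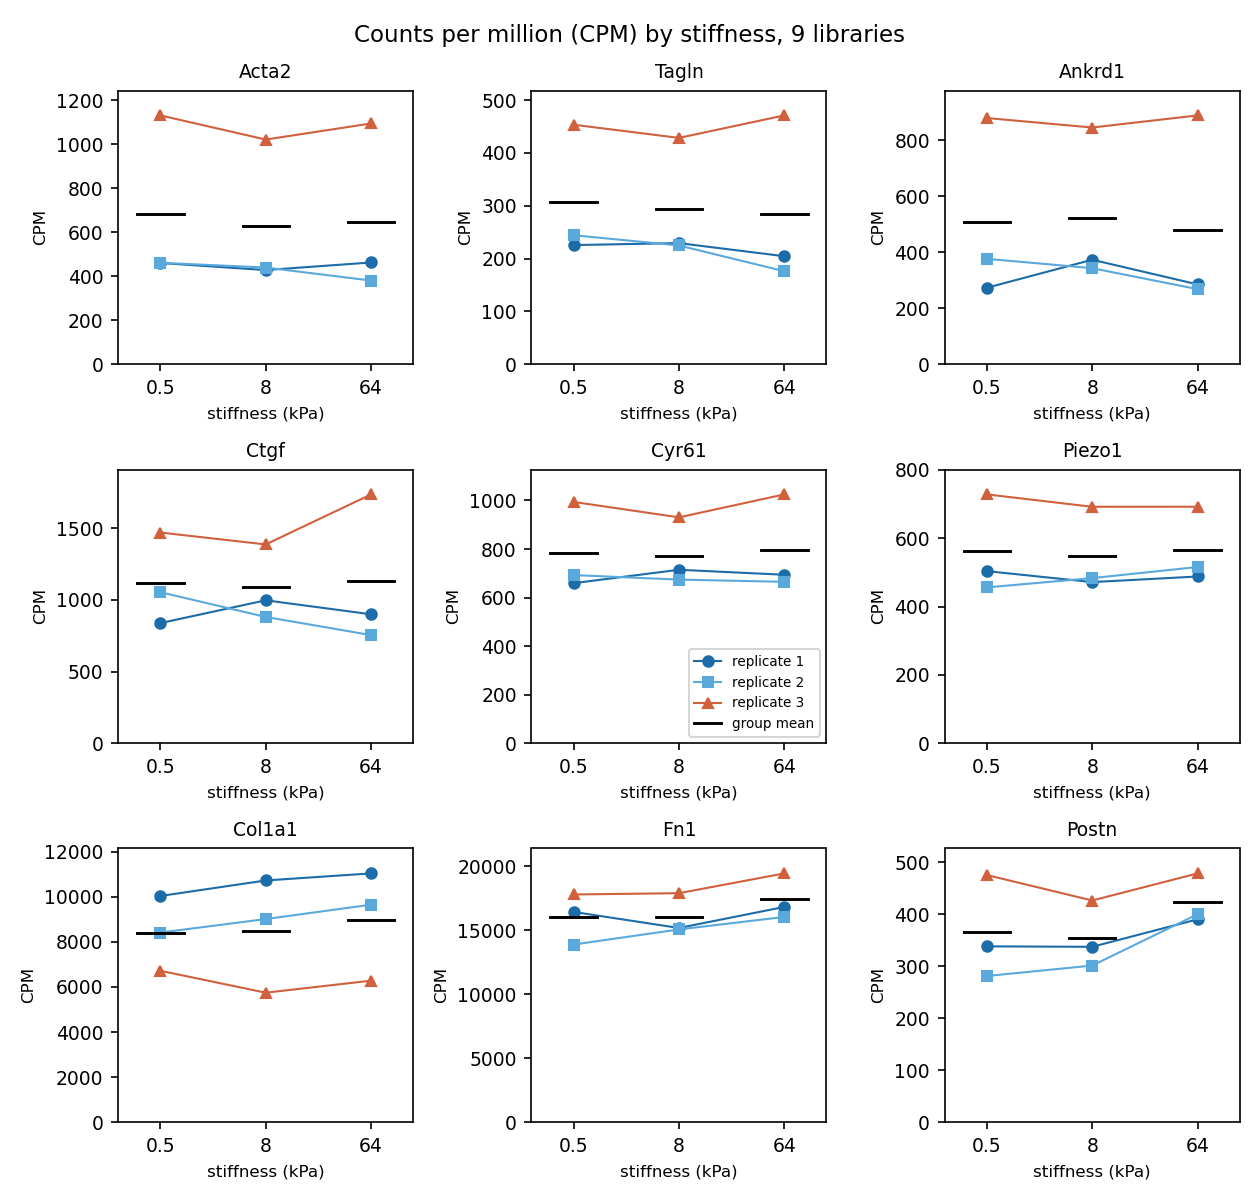
CPM of 9 genes against stiffness in kPa, with a point for each of the 9 libraries, a line joining the libraries of one replicate number and a black bar at the mean of each stiffness. In Acta2, Tagln, Ankrd1, Ctgf, Cyr61 and Piezo1 the 3 libraries numbered 3 lie above the other 6, in Col1a1 they lie below.

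The lists of mechanically responsive genes can be read as a whole from their 95% intervals. All 31 contractile and stress-fibre genes, Actb and Actg1 among them, had an interval for 64 with 0.5 kPa within 2-fold when the block was used, and 27 had one without it; over all genes the shares were 89.9% and 81.4%. Over all genes the median log2 difference with the block was -0.00081 for 64 with 0.5 kPa, 0.0034 for 8 with 0.5 kPa and -0.0017 for 64 with 8 kPa. The contractile genes had a median of -0.03, 0 of 31 had an unadjusted p under 0.05 in either direction, while over all genes 5.06% did for higher and 3.89% for lower. Among 30 YAP/TAZ-TEAD genes 29 had an interval within 2-fold, 2 had an unadjusted p under 0.05 for higher and 3 for lower, and the median was -0.05. Among 23 tested MRTF-SRF genes 22 were within 2-fold, with 1 higher and 0 lower at the same p. Integrins and focal adhesion genes, 32 in all, had 31 within 2-fold, 4 higher and 2 lower, and Itgb1, the shared beta subunit of most collagen and fibronectin receptors, differed by 0.06 ± 0.04. Mechanosensitive channels and nuclear lamina genes had 16 of 17 within 2-fold, 2 higher and 0 lower. Lmna, whose lamins A and C stiffen the nucleus, differed by 0.13 ± 0.04 (adjusted p = 0.475 in edgeR with Benjamini-Hochberg adjustment and the block). None of these genes was called in edgeR in any pair of stiffnesses.

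Collagen XV, collagen VI and matrix Gla protein had all libraries at 64 kPa above all libraries at 8 kPa. Col15a1, the chain of a basement-membrane-associated collagen (chr4:47207655-47313167 on GRCm38.p6, the build named mm10 in the processing notes), had 113, 78.9 and 105 CPM at 0.5 kPa, 86.1, 93.0 and 119.5 CPM at 8 kPa and 179, 189.7 and 190.5 CPM at 64 kPa. Every library at 64 kPa was above every library at the other stiffnesses. It averaged 98.9 ± 17.8 CPM at 0.5 kPa, 99.6 ± 17.6 CPM at 8 kPa and 186 ± 6.70 CPM at 64 kPa (SD, n = 3 each), and the ratio of 64 to 0.5 kPa was 1.58, 2.4 and 1.82 in replicates 1, 2 and 3. The log2 difference of 64 and 0.5 kPa was 0.91 ± 0.16 without the block, with an unadjusted p of 3.65e-04 and an adjusted p of 1.0 in edgeR, and the adjusted p was 0.297 with the block. DESeq2 called Col15a1 for 64 with 0.5 kPa (adjusted p = 0.00669) and for 64 with 8 kPa (adjusted p = 0.00797), its only call in both. Among 35 other settings, 4 called it for 64 with 0.5 kPa, and its log2 difference ranged from 0.75 to 1.1. Groups at 64 and 0.5 kPa that did not overlap, with 64 kPa above, occurred in 324 of 12849 genes (2.52%), and with 64 kPa below in 281 (2.19%).

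Col6a3, the longest chain of the beaded-filament collagen VI, had 29.6, 23.3 and 44.4 CPM at 0.5 kPa, 25.9, 26.3 and 34.5 CPM at 8 kPa and 47.0, 48.6 and 50.2 CPM at 64 kPa. All libraries at 64 kPa were above all others, and the log2 difference from 8 kPa was 0.77 ± 0.14 with the block (edgeR adjusted p = 0.182, with Benjamini-Hochberg adjustment). Col6a1 and Col6a2, its partner chains, had log2 differences of 0.43 ± 0.12 and 0.39 ± 0.11 between 64 and 8 kPa, and in both the 3 libraries at 64 kPa lay above the 3 at 8 kPa. DESeq2 with the block called all 3 chains for this pair, with an adjusted p of 2.13e-04, 0.0138 and 0.0479 for Col6a3, Col6a1 and Col6a2. Col1a1, a chain of the fibrillar collagen I, had 10031, 8411 and 6717 CPM at 0.5 kPa, 10719, 9008 and 5745 CPM at 8 kPa and 11032, 9647 and 6279 CPM at 64 kPa, with the libraries numbered 3 lowest at every stiffness, and its log2 difference between 64 and 8 kPa was 0.09 ± 0.06 with the block. Over 22 tested collagen chains 9 had an unadjusted p under 0.05 for higher and 2 for lower on 64 than on 8 kPa. The shares of all genes were 6.7% and 5.78%, and the median over the chains was 0.10. For 64 with 0.5 kPa the counts were 6 and 1, beside 5.06% and 3.89% of all genes. The libraries of 64 kPa are in both comparisons, so these counts are not independent. Without replicate 1 the count for 64 with 8 kPa was 3 higher and 2 lower, beside 284 and 279 of 12864 genes. Of 37 matrix glycoproteins and proteoglycans 12 were higher and 2 lower at that p on 64 than on 8 kPa. The counts without replicate 1 were 6 and 1, beside the same 284 and 279 of 12864 genes. Fn1, fibronectin, had a log2 difference of 0.12 ± 0.05 and Postn, the matricellular protein periostin, 0.27 ± 0.08. Mgp, matrix Gla protein, an inhibitor of calcification, had 281, 216 and 171 CPM at 0.5 kPa, 208, 208 and 243 CPM at 8 kPa and 378, 365 and 308 CPM at 64 kPa. All of its libraries at 64 kPa were above all others, and edgeR's adjusted p with the block was 0.32 for 64 with 8 kPa after Benjamini-Hochberg adjustment. Groups of 64 and 8 kPa that did not overlap, with 64 kPa above, were found for 482 genes (3.75%), and with 64 kPa below for 497 (3.87%).

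Caveola genes leaned the same way. Of 10 tested, 5 had an unadjusted p under 0.05 for higher and 0 for lower on 64 than on 8 kPa with the block, beside 6.7% and 5.78% of all genes, the median log2 difference was 0.17, and 0 were called. Without replicate 1 the count was 2 higher, beside 284 of 12864 genes. Cav1, the coat protein of these membrane pits, had 70.3, 64.3 and 248 CPM at 0.5 kPa, 59.1, 78.3 and 212 CPM at 8 kPa and 93.7, 115 and 305 CPM at 64 kPa. Within each replicate number 64 kPa was the highest, while the library numbered 3 was the highest at each stiffness, so the groups overlapped. Its log2 difference between 64 and 8 kPa was 0.55 ± 0.72 without the block and 0.58 ± 0.11 with it (edgeR adjusted p = 0.183, Benjamini-Hochberg), and DESeq2 with the block gave an adjusted p of 1.29e-04. Ptrf, the main cavin of the coat, had a log2 difference of 0.09 ± 0.04 for the same pair. BMP and Wnt pathway genes had 10 of 29 higher and 0 lower at an unadjusted p under 0.05 in this pair, beside the same 6.7% and 5.78% of all genes, with a median of 0.19. Without replicate 3 the count was 8 higher and 5 lower of 28, beside 1016 and 980 of 12864 genes. Sfrp2, a secreted Wnt antagonist, had 17.6, 8.59 and 12.3 CPM at 0.5 kPa, 12.8, 12.9 and 8.42 CPM at 8 kPa and 23.8, 28.9 and 13.1 CPM at 64 kPa. Its 64 kPa libraries were all above its 8 kPa libraries, by 0.95 ± 0.31 on the log2 scale. Resting fibroblast markers had 8 of 25 higher and 2 lower in the same pair, the lower ones at a share near the 5.78% of all genes. Pdgfra, the receptor that marks resident fibroblasts, differed by 0.02 ± 0.06.

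**Figure D3:**
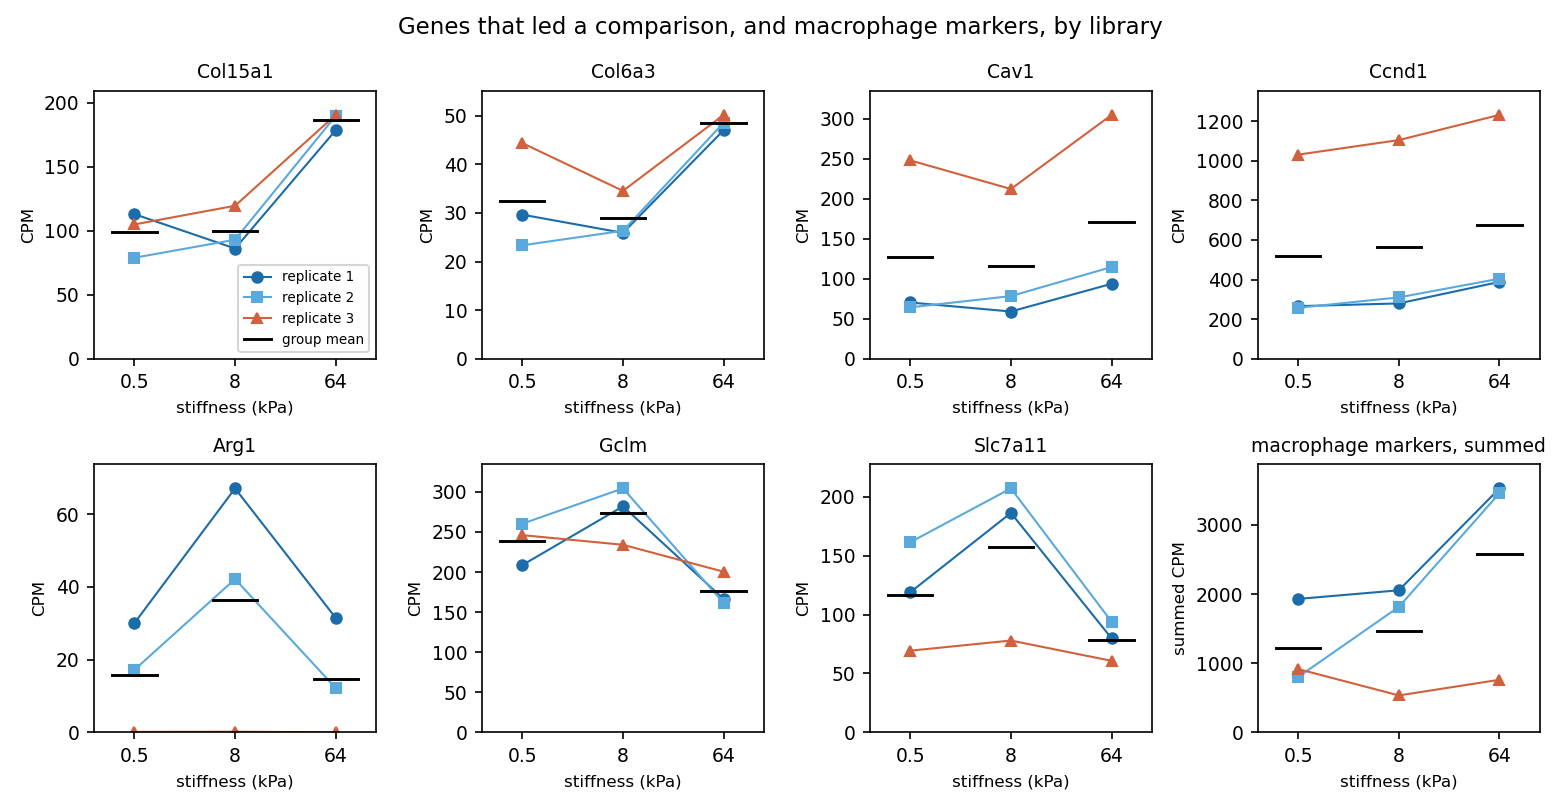
CPM of 7 genes and summed CPM of the macrophage markers against stiffness in kPa, with a point for each of the 9 libraries, a line for each replicate number and a black bar at the mean of each stiffness. Col15a1 and Col6a3 have all 3 libraries of 64 kPa above the other 6, Arg1 peaks at 8 kPa in replicates 1 and 2 and is near 0 in replicate 3, and the macrophage sum is highest in replicates 1 and 2 at 64 kPa.

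Macrophage markers had the largest median difference between 64 and 0.5 kPa of the lists with tested members, and it came with a wide spread between replicate numbers. Their 22 markers, 21 of them in the table, summed to 1930.3, 801 and 915 CPM at 0.5 kPa, 2055, 1815 and 534 CPM at 8 kPa and 3529, 3459.8 and 760.4 CPM at 64 kPa in replicates 1, 2 and 3. The high libraries were replicates 1 and 2 at 64 kPa, and the low ones were all 3 numbered 3 and the 0.5 kPa replicate 2. In bulk RNA, fewer cells of a type and less RNA per cell cannot be told apart. Of 18 tested markers 17 were above 0 for 64 with 0.5 kPa with the block, 7 had an unadjusted p under 0.05 for higher and 0 for lower, beside 5.06% and 3.89% of all genes, the median log2 difference was 0.85, and 0 were called. Without the 0.5 kPa replicate 2 that median was 0.35, and without replicate 3 it was 1.36. Fcgr1, a high-affinity antibody receptor, had 3.73, 1.87 and 0.756 CPM at 0.5 kPa, 6.71, 4.11 and 0.681 CPM at 8 kPa and 10.8, 9.46 and 1.2 CPM at 64 kPa. It was highest at 64 kPa within every replicate number, but in replicate 3 on raw counts of only 7, 8 and 12 at 0.5, 8 and 64 kPa. The log2 difference from 0.5 kPa was 1.78 ± 0.23 with the block (edgeR adjusted p = 0.11, Benjamini-Hochberg), and DESeq2 with the block gave an adjusted p of 0.00576. Lyz2, lysozyme, had 917, 362 and 401 CPM at 0.5 kPa, 986, 888 and 231 CPM at 8 kPa and 1731, 1672 and 334 CPM at 64 kPa. Hpgds, which makes prostaglandin D2, is not one of the 22 markers. It had 3.42, 2.15 and 2.37 CPM at 0.5 kPa, 3.87, 4.05 and 1.70 CPM at 8 kPa and 9.08, 9.81 and 3.71 CPM at 64 kPa, with every 64 kPa library above every 0.5 kPa library. Lysosome and autophagy genes, many of them abundant in macrophages as well as in fibroblasts, had 10 of 32 higher and 0 lower for 64 with 0.5 kPa at an unadjusted p under 0.05, beside the same shares of all genes. Ctsb, a lysosomal protease, had 1267, 1016 and 819.8 CPM at 0.5 kPa, 1269, 1168 and 806 CPM at 8 kPa and 1622, 1563 and 864 CPM at 64 kPa. It was high in the same 2 libraries as the macrophage markers, whose part in it was not tested. Col15a1, described above, had its highest 3 values at 64 kPa, and the part of macrophage RNA in it was not tested.

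Arg1 was the one gene that edgeR called when all 9 libraries were used as separate samples, and the call needed the block. It fell on 64 kPa relative to 8 kPa. It encodes arginase, which splits arginine to ornithine and urea and is a known product of some macrophages as well as other cells (chr10:24915207-24927470 on GRCm38.p6). It had 30.0, 17.2 and 0.108 CPM at 0.5 kPa, 67.1, 42.1 and 0.170 CPM at 8 kPa and 31.5, 12.2 and 0 CPM at 64 kPa. The raw counts were 395, 248 and 1 at 0.5 kPa, 989, 677 and 2 at 8 kPa and 336, 175 and 0 at 64 kPa. In replicates 1 and 2 the 8 kPa library was the highest, and in replicate 3 the gene had at most 2 counts at any stiffness. The log2 difference between 64 and 8 kPa was -1.41 ± 0.15 with the block (edgeR adjusted p = 0.0239, Benjamini-Hochberg), against -1.33 ± 1.64 without it (adjusted p = 1.0 in edgeR). A block that only set replicate 3 against replicates 1 and 2 gave -1.36 and an adjusted p of 0.371 in edgeR, and no gene was called with that block in any of the 6 tests. With the block the call was lost without any one of the 8 kPa libraries, with an adjusted p in edgeR of 0.0516, 0.547 and 0.104 without replicates 1, 2 and 3, and 0.201 without replicate 1 of every stiffness. It was kept without replicate 2 of every stiffness (0.0108) and without replicate 3 of every stiffness (0.0386). Leaving out any one library of 0.5 or 64 kPa kept it too (0.00118 to 0.0450). DESeq2 with the block called Arg1 for 64 with 8 kPa (adjusted p = 1.06e-08) and for 8 with 0.5 kPa (adjusted p = 2.03e-05). The difference of 8 and 0.5 kPa was 1.23 ± 0.14 with the block (edgeR adjusted p = 0.0722, Benjamini-Hochberg), and the ratio of 8 to 0.5 kPa was 2.23 in replicate 1 and 2.45 in replicate 2. The departure of 8 kPa from the line through 0.5 and 64 kPa was 1.33 ± 0.12 with an adjusted p of 0.00651 in edgeR with the block, a call that was also lost with the block of replicate 3 against the others. The macrophage marker sums in replicates 1 and 2 were highest at 64 kPa, and the part of macrophage RNA in the Arg1 values was not tested.

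Genes of the NRF2 antioxidant response were lower on 64 kPa than on 8 kPa as a list, although edgeR called none of them. With the block 15 of 20 had an unadjusted p under 0.05 for lower and 0 for higher, beside 5.78% and 6.7% of all genes, and the median log2 difference was -0.35, with 1 gene above 0. Without the block the count was 7 of 20 for lower, beside 1.13% of all genes. Without the libraries numbered 1, again without the block, it was 1, beside 16 of 12864 genes. With the block it was 6 without replicate 1, 8 without replicate 2 and 16 without replicate 3. The counts for lower over all genes were 279 of 12864, 495 of 12729 and 980 of 12864 in the same order. The mean log2 CPM of the 20 genes was 7.89, 8.18 and 7.97 at 0.5 kPa, 8.17, 8.27 and 8.00 at 8 kPa and 7.68, 7.64 and 7.89 at 64 kPa in replicates 1, 2 and 3. The 2 low libraries were replicates 1 and 2 at 64 kPa, which also held the most macrophage marker RNA, and the part of that in the result was not tested. Within each replicate number 8 kPa had the highest mean and 64 kPa the lowest.

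Genes of glutathione synthesis were among them. Gclm had 209, 260.3 and 246 CPM at 0.5 kPa, 282, 304 and 234 CPM at 8 kPa and 166, 161 and 200.4 CPM at 64 kPa. All 3 libraries at 64 kPa were below all others, and the ratio of 64 to 8 kPa was 0.590, 0.530 and 0.856 in replicates 1, 2 and 3. Its log2 difference between 64 and 8 kPa was -0.64 ± 0.13 without the block and -0.64 ± 0.14 with it (edgeR adjusted p = 0.273, Benjamini-Hochberg), and DESeq2 with the block called it (adjusted p = 3.89e-05). Gclc, the catalytic partner of Gclm, differed by -0.52 ± 0.13, with all libraries of 64 kPa below those of 8 kPa. Slc7a11, the cystine importer that feeds glutathione synthesis, had 119, 161 and 69.3 CPM at 0.5 kPa, 186, 207 and 77.9 CPM at 8 kPa and 79.8, 93.9 and 60.7 CPM at 64 kPa. Within every replicate number 8 kPa was the highest and 64 kPa the lowest, and the log2 difference of these 2 was -0.93 ± 0.18. Srxn1, which restores oxidised peroxiredoxins, had 310.3, 449 and 329 CPM at 0.5 kPa, 454, 511 and 353 CPM at 8 kPa and 243, 227 and 311 CPM at 64 kPa. All of its libraries at 64 kPa were below those at 8 kPa, with a log2 difference of -0.74 ± 0.23. Txnrd1, thioredoxin reductase, differed by -0.68 ± 0.24, Nqo1, a quinone reductase, by -0.60 ± 0.22, and Hmox1, haem oxygenase, by -0.63 ± 0.10, while the ferritin chains Fth1 and Ftl1 differed by -0.07 ± 0.04 and 0.04 ± 0.06. DESeq2 with the block called 5 of the 20 for this pair, all lower on 64 kPa, beside 40 of 11895 genes (0.336%), 17 of them lower. With the block and without replicate 3, edgeR called 6 of the 20, beside 49 of 12864 genes, 26 of them lower. Against 0.5 kPa the list was also lower on 64 kPa, with 7 of 20 at an unadjusted p under 0.05, beside 3.89% of all genes, and a median of -0.24. The comparisons share libraries, those of 64 kPa here and those of 8 kPa in the next, so their values are not independent. Between 8 and 0.5 kPa 1 of 20 was higher and 0 were lower, beside 1.59% and 1.46% of all genes, with a median of 0.13.

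**Figure D4:**
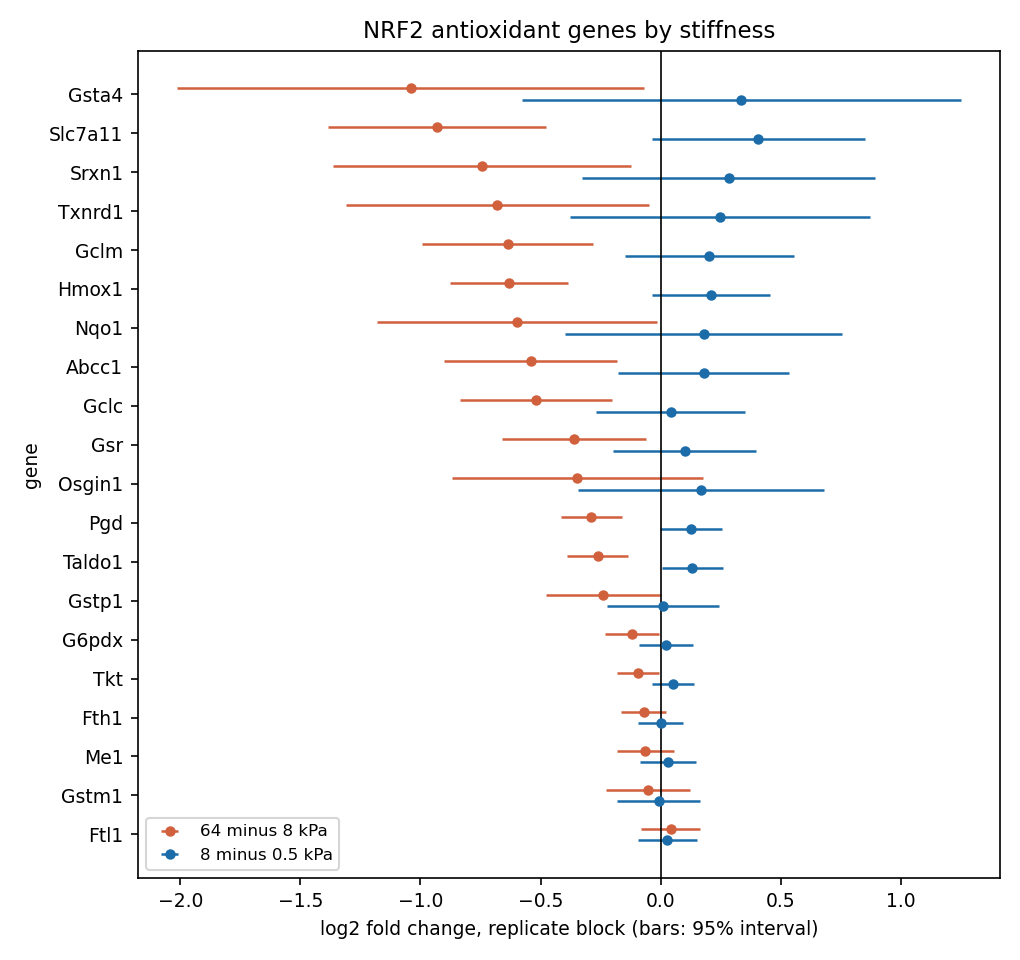
Log2 difference with its 95% interval for each of the 20 NRF2 antioxidant genes from edgeR with the replicate block, for 64 minus 8 kPa (orange) and 8 minus 0.5 kPa (blue). For 64 minus 8 kPa 19 of the 20 estimates are below 0 and 15 intervals lie wholly below 0, and for 8 minus 0.5 kPa 19 estimates are above 0.

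On 8 kPa, the substrate whose stiffness is the middle one, glycolysis genes leaned above 0.5 kPa as a list. Of 25 glycolysis and hypoxia response genes 24 were above 0 and 0 were called. At an unadjusted p under 0.05, 7 were higher and 0 lower, beside 1.59% and 1.46% of all genes. Without replicate 1 at 8 kPa the counts were 4 and 0, beside 168 and 136 of 12945 genes. The size with all libraries was small, with a median log2 difference of 0.09. For 64 with 8 kPa the counts were 0 higher and 7 lower, beside 6.7% and 5.78% of all genes, with a median of -0.08. Both comparisons use the libraries of 8 kPa, so their counts are not independent. Slc16a3, which exports lactate, had 104, 96.1 and 14.5 CPM at 0.5 kPa, 131, 113 and 17.9 CPM at 8 kPa and 96.8, 92.8 and 15 CPM at 64 kPa. It was highest at 8 kPa within every replicate number, at 0.28 ± 0.06 on the log2 scale against 0.5 kPa with the block. Pkm and Aldoa, the most abundant glycolytic enzymes of the list, differed by 0.08 ± 0.04 and 0.07 ± 0.04. For interferon response and antigen presentation genes the values rested on 1 library. With all libraries 29 of 30 were above 0, with 4 higher and 0 lower at an unadjusted p under 0.05 and a median of 0.46. Without replicate 1 at 8 kPa the median was 0.06, with 1 higher and 2 lower, beside the same 168 and 136 of 12945 genes. The mean log2 CPM of the list was 5.09, 4.02 and 3.60 in replicates 1, 2 and 3 at 8 kPa and 3.93, 4.26 and 3.26 at 0.5 kPa, so that replicate 2 was lower at 8 kPa. Ifit1, an RNA-binding antiviral protein, had 15.1, 22.4 and 4.43 CPM at 0.5 kPa, 59.7, 18.6 and 10.6 CPM at 8 kPa and 22.8, 14.1 and 5.71 CPM at 64 kPa, with replicate 1 at 8 kPa above every other library. Cholesterol and fatty acid synthesis genes were below 0 for 31 of 32 in the same pair, with 0 higher and 2 lower at that p and a median of -0.13.

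Of the 20 panel genes, Igf1, an insulin-like growth factor made by resting fibroblasts and by macrophages, had the largest difference between 64 and 0.5 kPa with the block. It had 39.5, 23.4 and 26.6 CPM at 0.5 kPa, 32.7, 36.4 and 16.9 CPM at 8 kPa and 63.7, 65.0 and 21.8 CPM at 64 kPa. The groups overlapped, and its log2 difference was 0.75 ± 0.44 without the block and 0.70 ± 0.34 with it. Tcf21, a transcription factor of the fibroblast lineage, differed by 0.39 ± 0.21. Il6, a cytokine that fibroblasts make when activated, had 203, 272 and 26.6 CPM at 0.5 kPa, 252, 210.2 and 40.7 CPM at 8 kPa and 153, 109 and 32.6 CPM at 64 kPa. Mmp3, the protease stromelysin, had 1389, 1609 and 72.8 CPM at 0.5 kPa, 1636, 1354 and 169.9 CPM at 8 kPa and 1014, 879.8 and 111 CPM at 64 kPa. In both the libraries numbered 3 were the lowest at every stiffness. Over 29 tested cytokine, chemokine and prostaglandin genes the median log2 difference for 64 with 8 kPa was -0.42 with the block, and 2 were higher and 6 lower at an unadjusted p under 0.05, beside 6.7% and 5.78% of all genes. For 64 with 0.5 kPa the median was -0.33 with 0 higher and 5 lower, beside 5.06% and 3.89% of all genes. Ccl2, a monocyte-attracting chemokine, differed by -0.11 ± 0.19 between 64 and 0.5 kPa.

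Proliferation genes also split by replicate number. The mean log2 CPM of 34 DNA replication genes was 4.38, 4.66 and 5.56 at 0.5 kPa, 4.70, 4.55 and 5.45 at 8 kPa and 4.41, 4.36 and 5.47 at 64 kPa, with replicate 3 highest each time. All 34 had an interval within 2-fold for 64 with 0.5 kPa with the block, as did all 34 mitosis genes and 89.9% of all genes. Each list had 0 higher and 3 lower at an unadjusted p under 0.05, beside 5.06% and 3.89% of all genes. Without the block 29 of 34 replication genes and 32 of 34 mitosis genes were below 0, beside 6464 of 12849 genes. Their median log2 difference was -0.10 in each list. Mki67, a marker of cycling cells, differed by -0.04 ± 0.10. Ccnd1, the cyclin that starts the cell cycle after adhesion and growth factor signals, had 266, 258 and 1031 CPM at 0.5 kPa, 279.8, 310.3 and 1104 CPM at 8 kPa and 388, 405 and 1232 CPM at 64 kPa. Within each replicate number 64 kPa was the highest, and the log2 difference from 0.5 kPa was 0.48 ± 0.07 with the block (edgeR adjusted p = 0.139, Benjamini-Hochberg), against 0.38 ± 0.77 without it. DESeq2 with the block called it (adjusted p = 5.30e-05). Ribosomal protein genes and nuclear oxidative phosphorylation genes had all 31 and all 33 intervals within 2-fold, with 1 and 0 higher and 0 and 1 lower.

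The 2D and 3D libraries share no library with the substrate groups and show what the same genes did in another change of surroundings. There edgeR called 5652 of 13376 genes (42.3%), 2960 higher (22.1%) and 2692 lower (20.1%) in 2D. Acta2 had 3441, 3983 and 1993 CPM in 2D and 52.1, 62.7 and 50.2 CPM in 3D, with every 2D library above every 3D library. The log2 difference was 5.83 ± 0.34 (edgeR adjusted p = 3.66e-04, Benjamini-Hochberg). Acta2 on the substrates lay between these levels, although the CPM of the substrate libraries were scaled apart from those of 2D and 3D. A test of the difference itself, 64 minus 0.5 kPa less 2D minus 3D over all 29 libraries, gave -5.93 ± 0.59 for Acta2 (edgeR adjusted p = 1.56e-07, Benjamini-Hochberg), -6.76 ± 0.68 for Ankrd1 and -3.76 ± 0.43 for Ctgf. That test called 5246 of 14036 genes (37.4%), and 30 of the 31 contractile genes, 17 of 30 YAP/TAZ-TEAD genes and 18 of 23 MRTF-SRF genes were among them. The contractile genes themselves rose in 2D relative to 3D in 27 of 31 cases and fell in 0, with a median log2 difference of 1.76. For YAP/TAZ-TEAD genes the counts were 13 and 3 of 30. Cav1, higher on 64 than on 8 kPa within each replicate number, was also higher in 2D, by 4.35 ± 0.45. Col15a1 ran the other way, at -1.82 ± 0.34 for 2D with 3D, and its difference from the stiffness contrast was 2.71 ± 0.38 (edgeR adjusted p = 8.71e-06, Benjamini-Hochberg). Of 2452 genes called with at least a 2-fold change between 2D and 3D, 2151 (87.7%) had an interval within 2-fold for 64 with 0.5 kPa with the block, against 89.9% of all genes tested, and the median size of their log2 difference was 1.67 between 2D and 3D and 0.11 between the stiffnesses.

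**Figure D5:**
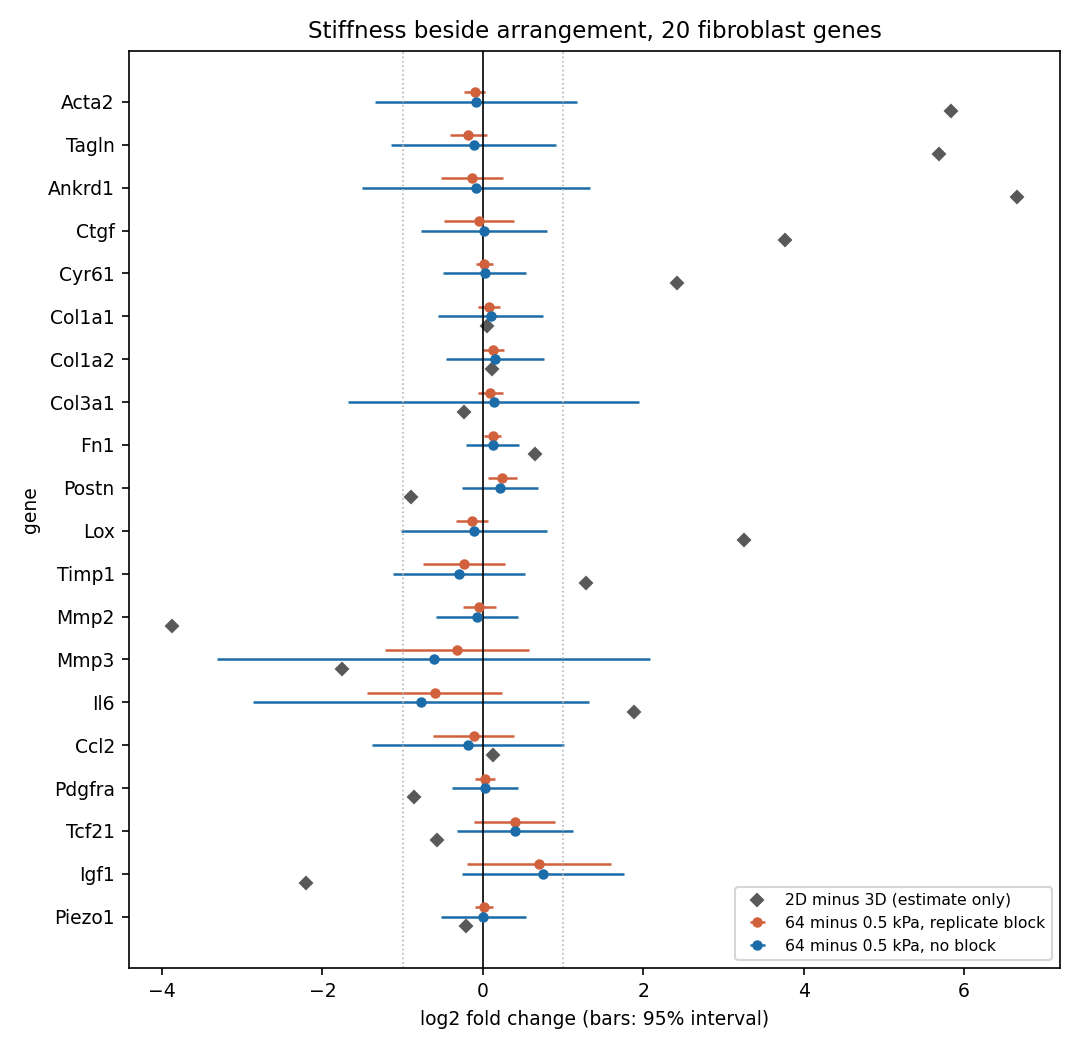
Log2 difference of 64 minus 0.5 kPa with its 95% interval for the 20 panel genes, without (blue) and with (orange) the replicate block, beside the estimate of 2D minus 3D as a grey diamond, with dotted lines at a 2-fold change. The diamonds of Acta2, Tagln and Ankrd1 lie far to the right of intervals that hold 0, and with the block the interval of Acta2 runs from -0.24 to 0.03, against -1.34 to 1.17 without it.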

How the data were processed

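The 9 substrate libraries were RNA-seq of total RNA from cardiac fibroblasts. What the authors deposited for the 29 RNA libraries is 1 table of raw counts by gene. Per the submitters' processing notes the tools were TopHat, Bowtie, HTSeq and MACS2 and the build mm10, with no role given. Versions and the use of strand are not stated by any source used here, so overlapping and antisense genes may share reads. The 5 summary lines of the table were left out: 17.8% to 28.4% of reads were not uniquely aligned and 4.84% to 9.72% fell outside genes. A further 27 symbols had been turned into dates, and the ATAC libraries were not analysed here. Library totals were 9053061 to 16227198.

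From these deposited counts, CPM used TMM-scaled totals. edgeR 4.0.16 in R 4.3.3 (filterByExpr, TMM, robust quasi-likelihood fit, Benjamini-Hochberg adjustment over all 12849 genes tested, threshold 0.05) compared the stiffnesses with 1 mean per group, and again with the replicate number as a block. The slope was over log2 kPa. SE and 95% intervals came from the same fits. The block was used because libraries with the same number deviated together from their group means over genes (r = 0.25 to 0.83, over genes and not over independent samples). Replicates 1 and 2 did so across numbers as well (r = 0.38 to 0.65), and 13 of 18 comparisons of a library with another group matched best on its own number. Replicate 3 deviated against replicates 1 and 2 (r = -0.78 to -0.37), so its libraries could only match their own number. The lowest r of a shared number, 0.25, lay below the lowest r of replicate 1 with 2, 0.38. The count of matches therefore cannot show that numbers 1 and 2 mark separate pairs. No label says what a number stands for. Replicates 1 and 2 differed by more than sampling noise and were kept as separate samples. 2D and 3D were compared in a fit of their 6 libraries. Checks on simulated counts preceded the fits.

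DESeq2 1.42.0, other normalizations and filters, stiffness as kPa or rank, a block of replicate 3 against the others, summed libraries and leaving out libraries were alternatives. The members and the 42 gene lists were chosen with earlier results of these data known. Genes to name were those called with the largest change, with non-overlapping libraries and a mean log2 CPM of at least 3, up to 4 called members or the 2 most abundant members of each list, and a panel of 20 genes. As no gene met the first part, those leading a comparison were picked with their values in view. With 3 libraries against 3 an exact permutation test cannot go below a p of 0.1, so none was used.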

Additional observations from a re-analysis of the deposited data

How the results depend on the processing

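Against 0 calls in each of the 6 tests without the block, 0 calls were also made with all 29 libraries, no filter or a filter of 1 CPM, RLE size factors, unscaled library totals, stiffness as kPa or rank, libraries 1 and 2 summed without a block, and without any single library when no block was used. None of these fits had a block, so the difference between replicate numbers stayed in their spread. They cannot show how these choices act on calls made within replicate numbers. The replicate block, used because same-numbered libraries deviated together, gave 1 call for 64 with 8 kPa, 1 for the departure from a straight line and 1 for any difference, and 0 in the other tests. DESeq2 gave 1 call for 64 with 0.5 kPa, 1 for 64 with 8 kPa, 1 for the slope and 1 for any difference. DESeq2 with the replicate block gave 23 for 64 with 0.5 kPa, 1 for 8 with 0.5 kPa, 40 for 64 with 8 kPa, 13 for the slope, 16 for the departure and 37 for any difference. A block of replicate 3 against replicates 1 and 2, added after seeing the data, gave 0 calls in each of the 6 tests, and summing libraries 1 and 2 with that block, also added then, gave 2, 3 and 6 for the pairs 64 with 0.5, 8 with 0.5 and 64 with 8 kPa, 4 for the departure and 6 for any difference. Calls among list members were 3 by DESeq2, 34 by DESeq2 with the block and 4 by the summed libraries, against 0. The cause of these differences was not tested. The counts of list members have no share over all genes beside them. They do not show whether list members were called more often than other genes.

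Over all fits that left out libraries, with and without the block, calls ranged from 0 to 49 for 64 with 0.5 kPa, 0 to 30 for 8 with 0.5 kPa, 0 to 405 for 64 with 8 kPa, 0 to 32 for the slope, 0 to 265 for the departure, 0 to 204 for any difference and 0 to 86 for list members. Of these fits, the ones with the block that left out a single library were added after seeing the data. The range for list members has no share over all genes beside it either. For 2D with 3D the range was 3388 (without 2D replicate 2) to 6653 (without 3D replicate 3). Of 805 values of 23 gene results under alternatives, 705 kept their direction and side of the threshold, 53 passed it and 47 reversed. The block reversed Ctgf for 64 with 0.5 kPa to -0.045, as did a block of replicate 3 against the others (-0.043) and DESeq2 with the block (-0.046). The reversals of other genes came from leaving out libraries. Their log2 differences for 64 with 0.5 kPa then ranged from -0.70 to 0.49 for Acta2, -0.69 to 0.27 for Tagln, -0.88 to 0.56 for Ankrd1, -0.44 to 0.26 for Ctgf, -0.20 to 0.23 for Cyr61, -0.075 to 0.30 for Col1a1, -0.29 to 0.63 for Col3a1 and -0.39 to 1.37 for Ccnd1. For 64 with 8 kPa the range was -0.16 to 1.31 for Cav1 and -0.83 to 0.12 for Slc16a3, and for 8 with 0.5 kPa -0.20 to 0.76 for Slc16a3. With 3 libraries a group, the median SE of a log2 difference over genes was 0.163 for 64 with 0.5 kPa without the block and 0.0969 with it.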
